A study of Mus musculus with 6 samples.

Results

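The BCL2 family genes described here are 10 genes that set whether a cell keeps its mitochondria intact or enters apoptosis: the anti-apoptotic Bcl2, Bcl2l1, Mcl1 and Bcl2a1b, the effectors Bax and Bak1, and the BH3-only genes Bcl2l11, Bbc3, Pmaip1 and Bid. They were chosen by name, as core members of the family, when earlier results of these data were already known. All 10 were present among the 41079 genes listed in the tables, and all 10 passed the filter on low counts that left 14618 genes for testing. In stimulated microglia 2 of the 10, Bcl2 and Bcl2l11, rose, and 5, Mcl1, Pmaip1, Bbc3, Bcl2l1 and Bid, fell (edgeR adjusted p under 0.05). Over all tested genes, 14.7% rose and 15.2% fell at that threshold. The falls of Bcl2l1 and Bid did not pass it without control replicate 1, 2 or 3.

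The cells were primary microglia, the resident macrophages of the brain, from C57Bl/6N mice aged 1 to 3 days, and RNA-seq was done on 3 control and 3 stimulated cultures, which the study's methods call biological replicates. Mixed brain cultures of both groups were fed L-929 conditioned medium, a source of the growth factor CSF1, and the microglia were then collected by shaking; flasks held brains of more than 1 pup. Control cells were kept in serum-free DMEM/F12. Stimulated cells received the same medium with human TGF-β1, human IL-34 and CX3CL1 at 100 ng/mL each and, per the study's methods but not the labels, cholesterol, insulin-transferrin-selenium and a collagen IV coating, so the cytokines cannot be told apart from these additions. IL-34 is a ligand of CSF1R, the receptor on which microglial survival depends, TGF-β1 keeps microglia in their resting state, and CX3CL1 is a neuronal chemokine.

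The family works as a balance of binding partners at the outer mitochondrial membrane. BAX and BAK1 form the pores that release cytochrome c, the anti-apoptotic proteins hold them and the BH3-only proteins in check, and BH3-only proteins, induced by growth factor loss, DNA damage or stress, either occupy the anti-apoptotic proteins or activate the effectors directly. Most of this control acts on protein binding, phosphorylation and turnover, which RNA-seq does not measure.

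Count totals ran from 20628148 to 27261839 per library. Of the microglia markers, 9 of 10 were listed, and their summed level was 8552 to 9286 CPM (counts scaled to a common library size by TMM factors) in control and 13169 to 17228 in stimulated libraries. Markers of other cells, 6 genes for each cell type, were far lower. Without overlap between groups, their summed CPM in control and stimulated libraries was 3.07 to 4.72 and 5.30 to 6.34 for neurons, 31.5 to 33.6 and 16.6 to 21.4 for astrocytes, 135 to 151 and 164 to 202 for oligodendrocytes, and 0.219 to 0.329 and 1.55 to 3.11 for neutrophils. Fibroblast and pericyte markers overlapped at 32.3 to 45.9 and 28.4 to 148 CPM, and lymphocyte markers were at most 0.331 CPM. Cd3e, Nkg7, S100a9, Ly6g, Mpo and Elane were at 0 in every library. Between groups, 6 microglia markers were called higher and 2 lower, 1 neuronal, 1 oligodendrocyte and 1 neutrophil marker higher, 1 astrocyte marker lower and no fibroblast or pericyte marker, and the part of these shifts in the values below was not tested. In bulk RNA, fewer cells of a type and less RNA per cell cannot be told apart. Differences were tested with edgeR's quasi-likelihood test over all 14618 genes and called at a Benjamini-Hochberg adjusted p under 0.05, and log2 fold changes (stimulated over control) carry their standard error (SE).

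As background, 29.8% of all tested genes were called, 14.7% higher and 15.2% lower, and in 43.9% the 3 stimulated libraries did not overlap the 3 control libraries, lying above them in 21.4% and below in 22.5%. Among the 10 BCL2 family genes 7 were called and 8 had libraries that did not overlap. Calls of at least 2-fold were 1 higher, Bcl2, and 2 lower, Mcl1 and Pmaip1, against 5.9% and 5.11% of all tested genes. The 10 genes' median log2 fold change was -0.33, against 0.01 over all tested genes. By role, the anti-apoptotic genes held 1 higher and 2 lower call of 4, the effectors none of 2, and the BH3-only genes 1 higher and 3 lower of 4.

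**Figure D1:**
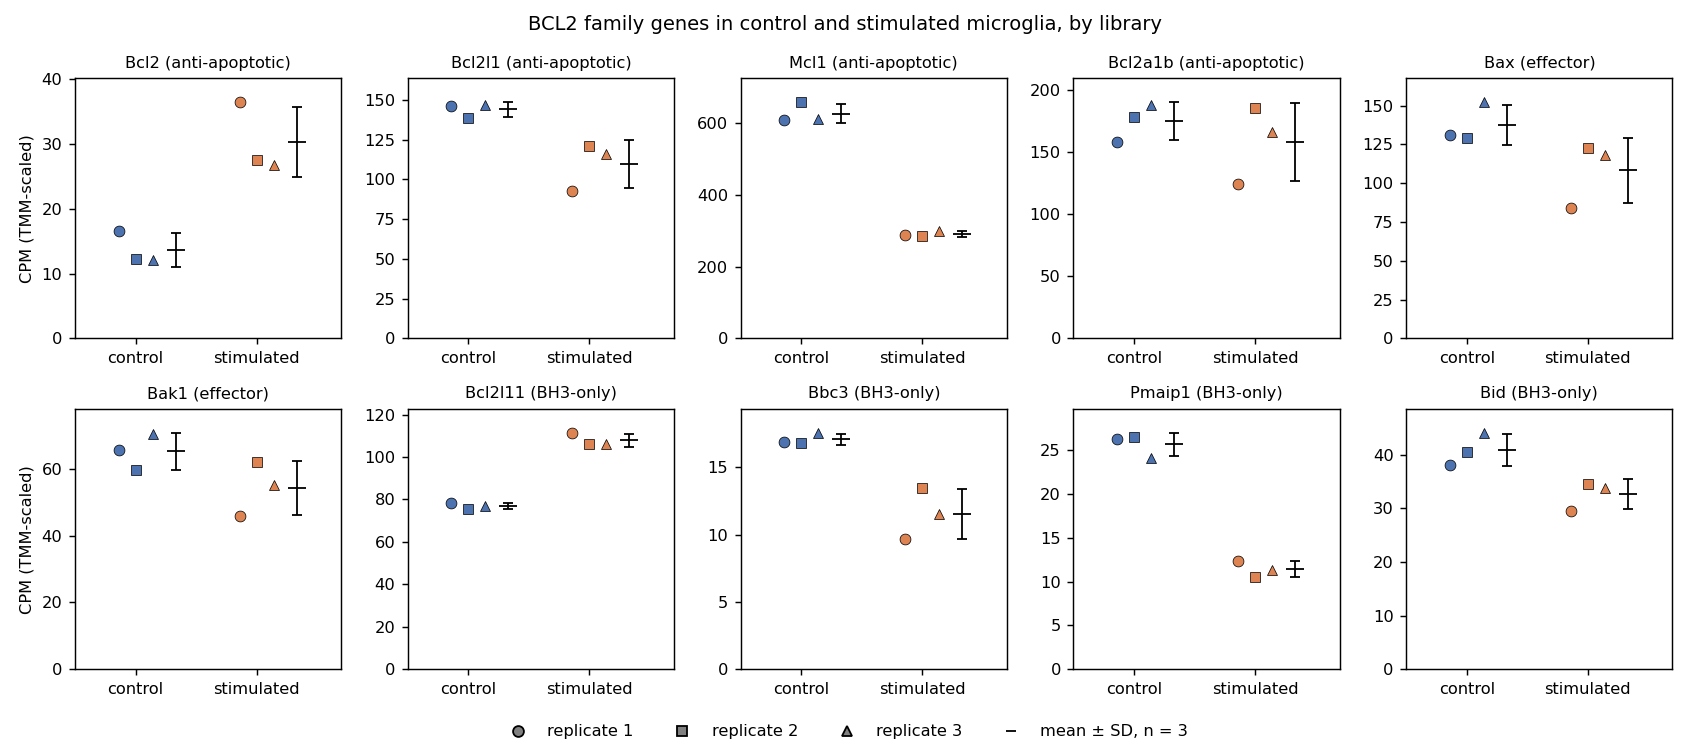
TMM-scaled CPM (vertical axes, each from 0) of the 10 BCL2 family genes in 3 control and 3 stimulated libraries, with marker shapes for replicate numbers and bars for the mean ± SD. Bcl2 and Bcl2l11 lay higher in every stimulated library, Mcl1, Pmaip1, Bcl2l1, Bbc3, Bid and Bax lower in every one, and Bcl2a1b and Bak1 overlapped between groups.

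The largest rise within the family was that of Bcl2, the founding anti-apoptotic member (chromosome 1, 106465908 to 106642060, minus strand, GRCm39). Its level was 16.6, 12.2 and 12.04 CPM in control libraries and 36.5, 27.6 and 26.7 CPM in stimulated libraries. All stimulated libraries lay above all control libraries, and replicate 1 was the highest of its group in both conditions. The mean went from 13.6 ± 2.58 to 30.3 ± 5.40 CPM (SD, n = 3), a log2 fold change of 1.15 (SE 0.16, 95% interval 0.79 to 1.52, adjusted p = 0.000449 by edgeR), and 9.70% of tested genes changed more in either direction. These values rest on 300 to 771 counts per library. Without stimulated replicate 1 the log2 fold change was 1.00, and limma on log2(FPKM + 1), a scale that understates changes of low genes, gave 0.73.

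Mcl1 encodes a short-lived anti-apoptotic protein (chromosome 3, 95566026 to 95570487, plus strand). The gene was the most abundant member of the family in raw reads, with 6089 to 16694 counts per library. Control libraries held 609, 658 and 611 CPM and stimulated libraries 288, 284 and 299 CPM. The groups were far apart and each was tight, with means of 626 ± 27.7 and 290 ± 7.29 CPM (SD, n = 3). Mcl1 fell by 1.11 on the log2 scale (SE 0.08, 95% interval -1.30 to -0.92, adjusted p = 6.93e-06 by edgeR), a 2.16-fold lower level, and 10.4% of tested genes changed more. The 2 anti-apoptotic genes of largest change thus moved in opposite directions, and each kept its call under all 16 alternative settings.

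Because Bcl2 and Mcl1 moved apart, the 250 bases before the start of each canonical transcript (GENCODE M39, GRCm39) are shown, read 5′ to 3′ on the gene's strand with matches to the searched motifs in capitals. The Bcl2 window is chr1:106642061-106642310 on the minus strand and the Mcl1 window chr3:95565776-95566025 on the plus strand.

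Bcl2: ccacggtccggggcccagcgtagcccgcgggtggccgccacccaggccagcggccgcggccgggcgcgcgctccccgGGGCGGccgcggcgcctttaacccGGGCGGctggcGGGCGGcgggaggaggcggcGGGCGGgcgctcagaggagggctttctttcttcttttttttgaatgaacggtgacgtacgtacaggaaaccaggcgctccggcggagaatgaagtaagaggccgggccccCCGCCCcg

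Mcl1: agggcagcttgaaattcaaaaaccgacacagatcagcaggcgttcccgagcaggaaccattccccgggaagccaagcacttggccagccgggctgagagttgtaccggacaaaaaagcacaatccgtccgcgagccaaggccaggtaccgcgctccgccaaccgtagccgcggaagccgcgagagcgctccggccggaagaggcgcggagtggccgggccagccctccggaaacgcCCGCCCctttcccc

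The capitals in both mark the GC box (GGGCGG, either strand), the core of SP factor sites. It occurred 5 times in the Bcl2 window and 1 time in the Mcl1 window. The number of boxes per window over all windows was not computed, and any link to the changes was not tested. GC content was 74.0% for Bcl2 and 65.6% for Mcl1, with 36 and 26 CpG dinucleotides, against medians of 53.6% and 8 over 20996 windows placed the same way and of the same length. A GC box was present in 37.1% of all those windows and in 8 of the 9 BCL2 family windows searched, the window of Pmaip1 being left out. The windows of Bcl2l1, Bbc3 and Bid lie inside the annotated gene, downstream of other transcript starts and partly or wholly within UTRs, and the 6 windows outside the gene all held a GC box.

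Bcl2l1, which encodes BCL-XL (chromosome 2, 152622582 to 152673655, minus strand), fell by a smaller amount. It stood at 146, 139 and 147 CPM in control and at 92.6, 121 and 116 CPM in stimulated libraries. No stimulated library reached the control range, and stimulated replicate 1 was well below the other two. The means were 144 ± 4.66 and 110 ± 15.2 CPM (SD, n = 3), a log2 fold change of -0.39 (SE 0.11, 95% interval -0.63 to -0.15, adjusted p = 0.0208 by edgeR). The call was lost on leaving out control replicate 1, 2 or 3, with edgeR adjusted p of 0.073, 0.058 and 0.066.

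Bcl2a1b belongs to a cluster of mouse A1 genes on chromosome 9 (89081262 to 89089889, plus strand) that NF-κB induces in myeloid cells. Levels were 158, 179 and 188 CPM in control and 124, 185 and 166 CPM in stimulated libraries. The groups overlapped, and the log2 fold change of -0.14 (SE 0.14, 95% interval -0.46 to 0.17, adjusted p = 0.498 by edgeR) was not called. It was 0.0062 without stimulated replicate 1, the lowest library.

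Counts of the A1 genes depend on how reads were assigned among near-identical copies, which the sources used here do not give. The first 120 coding bases of Bcl2a1a, Bcl2a1b and Bcl2a1d (GENCODE M39, GRCm39) are shown for that reason, with the 7 positions at which any of them differ in capitals.

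Bcl2a1a: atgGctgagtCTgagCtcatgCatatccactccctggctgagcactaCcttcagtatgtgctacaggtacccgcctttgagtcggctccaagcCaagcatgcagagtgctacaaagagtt

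Bcl2a1b: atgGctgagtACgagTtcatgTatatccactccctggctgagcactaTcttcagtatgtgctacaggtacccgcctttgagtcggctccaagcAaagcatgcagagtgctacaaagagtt

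Bcl2a1d: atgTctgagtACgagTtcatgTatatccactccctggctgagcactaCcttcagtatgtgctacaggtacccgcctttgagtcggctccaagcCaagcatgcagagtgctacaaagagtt

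Over the whole coding sequence of 516 bases, 12 positions varied. Bcl2a1a and Bcl2a1b differed at 11, Bcl2a1a and Bcl2a1d at 7, and Bcl2a1b and Bcl2a1d at 6, the last being 98.8% identity, and identical runs reached 217 to 314 bases. Among counts of the 3 copies, Bcl2a1b held 72.2% ± 1.17 in control and 74.8% ± 0.381 in stimulated libraries, while Bcl2a1d went from 13.4% ± 0.418 to 9.61% ± 0.179 (SD, n = 3). Summed into 1 gene, the copies gave a log2 fold change of -0.20 with an edgeR adjusted p of 0.344, again not called.

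The effectors showed lower means without passing the test. Bax (chromosome 7, 45111015 to 45116325, minus strand) was at 131, 129 and 152 CPM in control and 84.1, 123 and 118 CPM in stimulated libraries. Every stimulated library was below every control library, although stimulated replicate 2 and control replicate 2 lay close together. The log2 fold change was -0.34 (SE 0.14, 95% interval -0.66 to -0.03, adjusted p = 0.0973 by edgeR). Bax was called lower under 8 of 16 alternative settings, among them library size alone (edgeR adjusted p = 0.011) and leaving out stimulated replicate 2 (edgeR adjusted p = 0.034).

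Bak1, the second pore former (chromosome 17, 27238784 to 27247983, minus strand), was at 65.6, 59.6 and 70.6 CPM in control and 45.9, 62.0 and 55.0 CPM in stimulated libraries. These ranges overlapped at stimulated replicate 2. The log2 fold change was -0.26 (SE 0.12, adjusted p = 0.131 by edgeR). Bak1 was called lower under 6 of 16 alternative settings, among them leaving out stimulated replicate 2 (edgeR adjusted p = 0.029) and library size alone (edgeR adjusted p = 0.013). Bak1 shares 437 exonic bases with Ggnbp1 on the opposite strand, a gene at only 1.91 CPM.

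**Figure D2:**
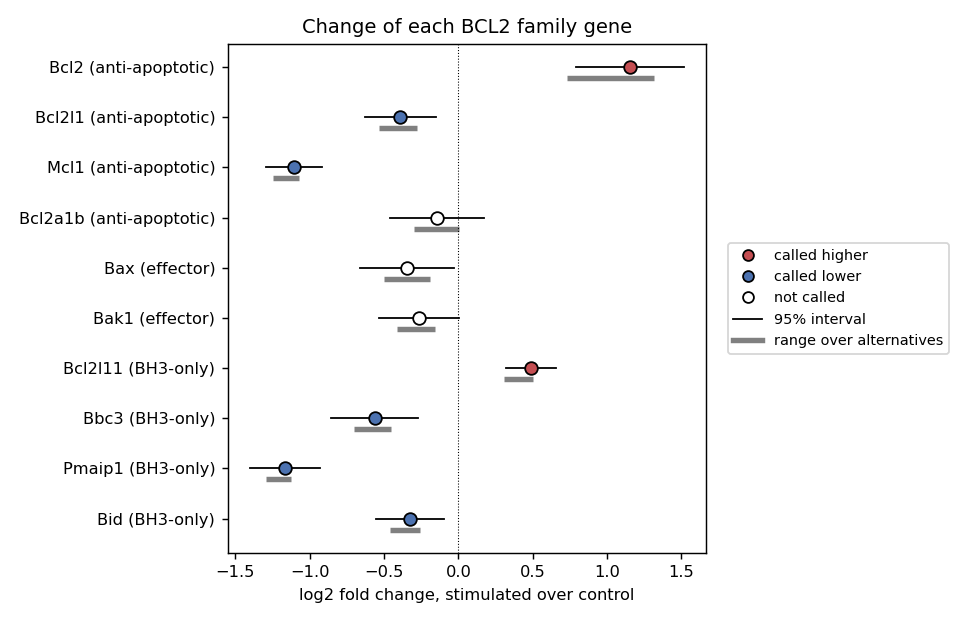
Log2 fold change (horizontal axis, stimulated over control) of each BCL2 family gene with its 95% interval as a thin line, and the range over the alternative settings as a grey bar below it. Bcl2 at 1.15 and Bcl2l11 at 0.49 stood to the right of 0, and Pmaip1 at -1.17 and Mcl1 at -1.11 farthest to the left.

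The 4 BH3-only genes did not move together. Bcl2l11 encodes BIM, which binds all anti-apoptotic members and is induced when growth factors are withdrawn (chromosome 2, 127967958 to 128004476, plus strand). It was at 78.3, 75.6 and 77.0 CPM in control and 111, 106 and 106 CPM in stimulated libraries. The spread within groups was small and the groups were well apart, at 77.0 ± 1.38 and 108 ± 2.99 CPM (SD, n = 3). Bcl2l11 rose by 0.49 on the log2 scale (SE 0.08, 95% interval 0.32 to 0.66, adjusted p = 0.000826 by edgeR), and limma on log2(FPKM + 1) gave 0.31.

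FOXO transcription factors are known to drive Bcl2l11, so its upstream window (chr2:127967708-127967957, plus strand, GRCm39) is shown with motif matches in capitals.

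Bcl2l11: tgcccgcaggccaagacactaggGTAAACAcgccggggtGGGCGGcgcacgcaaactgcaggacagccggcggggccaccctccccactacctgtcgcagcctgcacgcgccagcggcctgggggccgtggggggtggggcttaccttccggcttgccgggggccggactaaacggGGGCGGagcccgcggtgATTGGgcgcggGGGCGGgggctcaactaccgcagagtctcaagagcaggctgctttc

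The first capital run is the FOXO core GTAAACA, at positions -227 to -221 from the start, and the others are 3 GC boxes and 1 CCAAT box (reverse strand ATTGG). The FOXO core was present in 2.69% of all 20996 windows and in 2 of the 9 BCL2 family windows, those of Bcl2l11 and Bak1, and CCAAT in 36.4% and 2 (Bcl2l1 and Bcl2l11). CACGTG was found in 1 of the 9 windows, that of Bax, and in 6.33% of all windows. The AP-1 motif TGAGTCA, CRE TGACGTCA, NF-κB consensus, SMAD palindrome GTCTAGAC and TATAAA were in 0 of the 9 and in 4.03%, 1.72%, 0.129%, 0.233% and 11.7% of all windows. Motifs were searched on both strands and no matches overlapped. A match is a match of letters and was not tested as a binding site.

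Pmaip1 encodes NOXA, a p53 target whose protein binds MCL1 and A1 (chromosome 18). It was at 26.3, 26.5 and 24.2 CPM in control and 12.4, 10.6 and 11.3 CPM in stimulated libraries. All stimulated libraries were below all control libraries by a wide gap. The means were 25.7 ± 1.31 and 11.4 ± 0.903 CPM (SD, n = 3), and Pmaip1 fell by 1.17 on the log2 scale (SE 0.11, 95% interval -1.41 to -0.93, adjusted p = 2.22e-05 by edgeR), the largest decrease among the 10 genes, on 234 to 660 counts per library.

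Bbc3 encodes PUMA, another p53 target (chromosome 7, 16042318 to 16052130, plus strand). Control libraries held 16.9, 16.8 and 17.6 CPM and stimulated libraries 9.71, 13.5 and 11.5 CPM. The groups did not overlap, with control libraries almost equal and stimulated ones more spread. Bbc3 fell by 0.56 on the log2 scale (SE 0.13, 95% interval -0.85 to -0.27, adjusted p = 0.00867 by edgeR).

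Bid, which links death receptors to mitochondria after cleavage by caspase-8 (chromosome 6, 120862525 to 120894171, minus strand), was at 38.0, 40.5 and 44.0 CPM in control and 29.4, 34.6 and 33.9 CPM in stimulated libraries. The groups did not overlap but lay close. Bid fell by 0.33 on the log2 scale (SE 0.10, 95% interval -0.55 to -0.10, adjusted p = 0.0353 by edgeR), and the call was lost without control replicate 1, 2 or 3 or stimulated replicate 3, with edgeR adjusted p of 0.052, 0.10, 0.14 and 0.077. Bid shares 3059 exonic bases, 31.2% of its own, with Bcl2l13 on the opposite strand, and without a known strand setting reads of the pair cannot be told apart there. Bcl2l13 itself had a log2 fold change of 0.10 (edgeR adjusted p = 0.438).

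Stimulated replicate 1 was the highest of its group in Bcl2, Bcl2l11 and Pmaip1 and the lowest in Bcl2l1, Bcl2a1b, Bax, Bak1, Bbc3 and Bid. Without it, the counts of 2 genes called higher and 5 lower stayed as they were.

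Levels of different genes were compared in the deposited FPKM (fragments scaled by a factor per gene, meant as its length, and by library size). For Mcl1 this factor did not follow the annotated exons. In control replicate 1, Mcl1 had 13933 counts at 72.3 FPKM and Bcl2l1 3350 counts at 29.7 FPKM. Mcl1 was thus treated as the longer gene, although its exons hold 3491 bases against 5136. The place of Mcl1 in the order below depends on that factor. In control microglia the order of mean FPKM was Bcl2a1b at 232, Bax at 145, Mcl1 at 73.0, Bak1 at 32.7, Bcl2l1 at 28.7, Bid at 17.3, Pmaip1 at 9.84, Bcl2l11 at 6.53, Bbc3 at 5.77 and Bcl2 at 1.89. The library ranges of neighbours in this order did not overlap. In stimulated microglia the first 6 places were the same, with Bcl2a1b at 190, Bax at 104, Mcl1 at 30.7, Bak1 at 24.7, Bcl2l1 at 19.8 and Bid at 12.5 FPKM. Below them Bcl2l11 at 8.32 now stood above Pmaip1 at 3.98, Bcl2 at 3.82 and Bbc3 at 3.53, and the ranges of Pmaip1 and Bcl2, and of Bcl2 and Bbc3, overlapped. Bcl2 was thus the lowest of the 10 in control, and even after its rise stayed far below Mcl1 in FPKM. Bcl2a1b FPKM carries the doubt on read assignment given above.

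**Figure D3:**
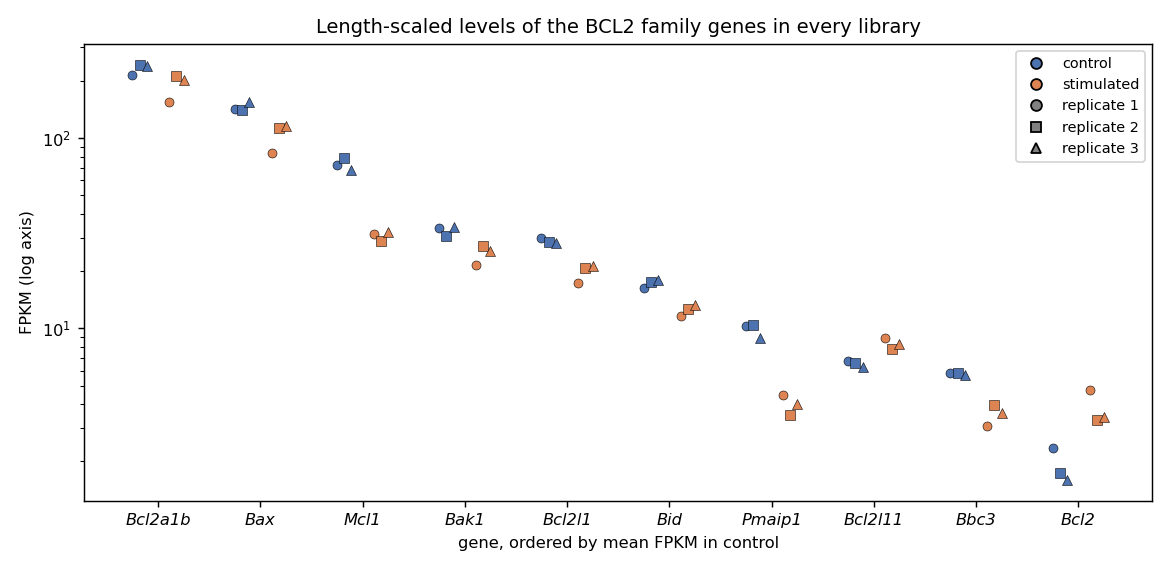
FPKM of each gene in each library (vertical log axis), genes ordered by mean control FPKM, control in blue and stimulated in orange, marker shapes for replicates. Bcl2a1b, Bax and Mcl1 were the top 3 in both groups, and Bcl2, lowest in control at 1.89, reached 3.82 in stimulated libraries.

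Ratios within a library do not depend on how libraries were scaled, and they are given as values without a test. Differences between libraries that go with gene length would still enter the ratios, and were not removed from them. The ratio of Bcl2 to Mcl1 FPKM was 0.0324, 0.0221 and 0.0234 in control and 0.150, 0.115 and 0.106 in stimulated libraries, 4.78-fold higher on average. The ratio of Mcl1 to Bcl2l11, a survival protein gene and the gene of one of its binding partners, was 10.7, 11.96 and 10.9 in control and 3.56, 3.67 and 3.87 in stimulated libraries. Neither ratio overlapped between groups, which follows from Bcl2 and Bcl2l11 lying higher and Mcl1 lower in every stimulated library. The ratio of Bcl2l11 to Pmaip1, genes that also lay apart between groups in opposite directions, moved from 0.666 ± 0.0375 to 2.10 ± 0.120 (SD, n = 3). Of the other pairs computed, 5 were also higher in every stimulated library, by 2.95-fold for Bcl2 to Bax, 2.12-fold for Bcl2l11 to Bbc3 and 1.58-fold for Bcl2 to Bcl2l11. The remaining pairs set against Mcl1 moved from 0.394 ± 0.0294 to 0.647 ± 0.0905 for Bcl2l1 and from 3.19 ± 0.285 to 6.23 ± 1.27 for Bcl2a1b (SD, n = 3). Most of these pairs share Bcl2 or Mcl1 and restate the change of that gene. The share of ratios without overlap over all gene pairs was not computed.

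In 3 pairs the libraries of the groups overlapped. Mcl1 to Pmaip1 was 7.43 ± 0.344 in control and 7.77 ± 0.591 in stimulated libraries, Bcl2l1 to Bax 0.198 ± 0.0146 and 0.192 ± 0.0125, and Bax to Bak1 4.45 ± 0.198 and 4.19 ± 0.328. The summed FPKM of the 4 anti-apoptotic genes over that of Bax and Bak1 was 1.89 ± 0.148 and 1.91 ± 0.0642, also overlapping. Sums and shares across genes depend on the FPKM gene factors, that of Mcl1 being in doubt as given above. Whether the groups overlap under other gene factors was not tested. Bcl2a1b, whose read assignment is in doubt, made up 69.1% and 77.5% of the anti-apoptotic sum. Without it, the sum of Bcl2, Bcl2l1 and Mcl1 went from 103.5 ± 5.35 to 54.4 ± 2.05 FPKM, and its ratio to Bax and Bak1 from 0.583 ± 0.0594 to 0.430 ± 0.0689, both lower in every stimulated library. Within the summed BH3-only FPKM, Bcl2l11 made up 16.6% in control and 29.4% in stimulated libraries, Pmaip1 25.0% and 14.03%, and Bid 43.8% and 44.1%.

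**Figure D4:**
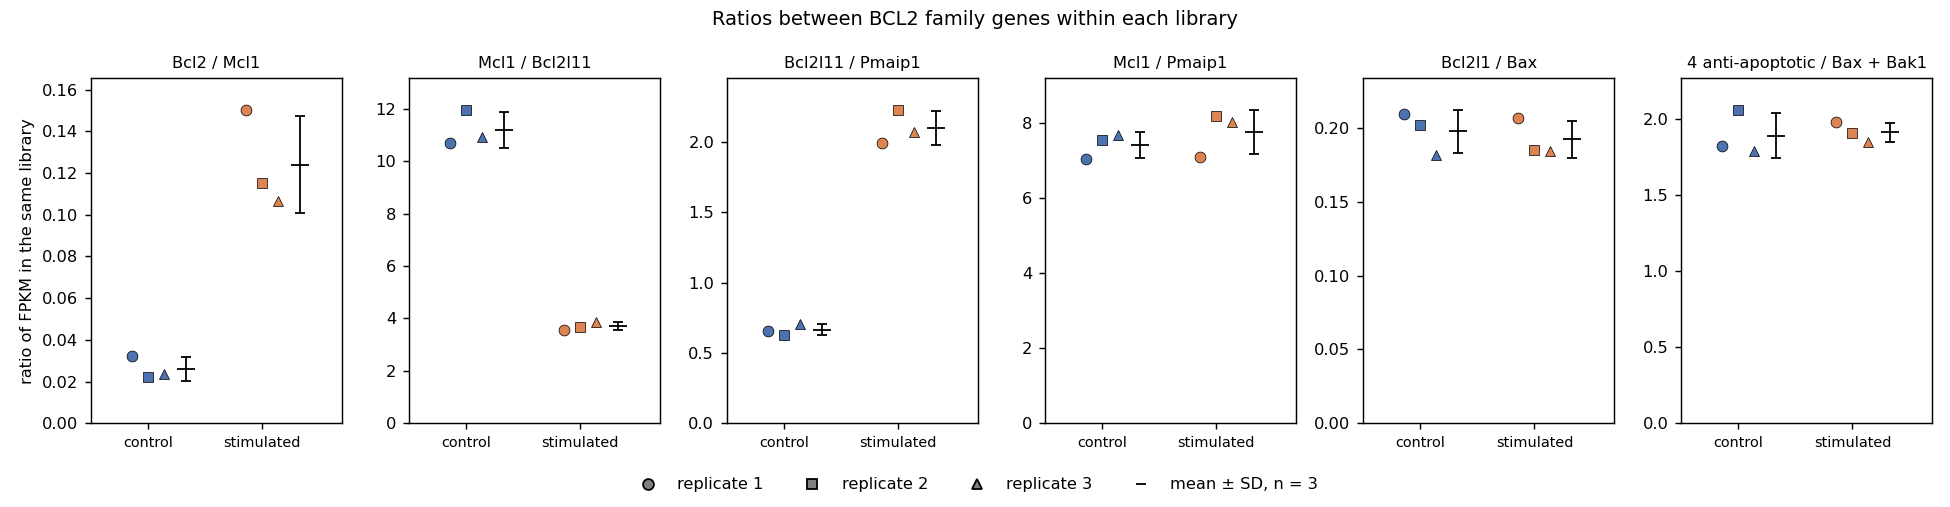
Ratios of FPKM between BCL2 family genes within each library (vertical axes from 0), in control and stimulated libraries with the mean ± SD. Bcl2 over Mcl1 and Bcl2l11 over Pmaip1 were higher and Mcl1 over Bcl2l11 lower in every stimulated library, while the other 3 ratios overlapped.

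Of 16 further family members and relatives, 10 were tested. Of these 3 were higher and 2 lower, beside 14.7% and 15.2% of all tested genes, and the median log2 fold change was 0.02. The 3 that rose all carry a BH3 or BH3-like domain. Bnip3, a hypoxia-induced mitophagy receptor, was at 28.1, 34.1 and 31.3 CPM in control and 91.1, 103 and 100 CPM in stimulated libraries, a log2 fold change of 1.65 (SE 0.10, adjusted p = 1.60e-06 by edgeR). Its relative Bnip3l rose by 0.52 (SE 0.09, adjusted p = 0.00120 by edgeR). Bmf, a BH3-only gene of detached or starved cells, was at 16.3 to 20.5 CPM in control and 43.9 to 49.4 CPM in stimulated libraries, a log2 fold change of 1.35 (SE 0.11, adjusted p = 1.05e-05 by edgeR). Bmf and Bnip3 thus rose by more than any of the 10 core genes in estimate, and their libraries did not overlap between groups.

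The 2 that fell were Bad, a BH3-only gene controlled by survival kinases, at -0.54 (SE 0.11, adjusted p = 0.00396 by edgeR), and Bcl2a1d at -0.68 (SE 0.15, adjusted p = 0.00815 by edgeR). Bad shares 914 exonic bases with Gpr137 on the opposite strand, and Bcl2a1d counts depend on the split among A1 copies. Bcl2l2, which encodes BCL-W, was at 27.6 to 30.3 CPM in control and 26.4 to 28.6 CPM in stimulated libraries, with a log2 fold change of -0.06 and a 95% interval of -0.27 to 0.14. Bcl2a1a (-0.09), Bcl2l12 (-0.20), Bcl2l13 (0.10) and Bik (0.41) were not called either. The other 6 were too low to test. Bcl2a1c and Bcl2l10 had no count in any library, for which 3 counts allow up to 0.110 to 0.145 CPM depending on the library. Bok had 5 to 8 counts per library, Bcl2l14 1 to 10, Hrk 0 to 6, and Bcl2l15 had 8 counts in stimulated replicate 1 and 0 in the others.

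Around the family, 88 genes in 7 pathway lists were examined, the relatives above included. Of these, 81 were tested and 28 called, beside 29.8% of all tested genes. Under every alternative setting 22 of the 28 kept their call. For each list below, the shares called over all tested genes were 14.7% higher and 15.2% lower. In the list of the apoptosome, caspases and their inhibitors, 3 of 17 tested genes fell and none rose (median -0.09). Birc3, the NF-κB-induced inhibitor cIAP2, was at 66.4, 69.5 and 69.8 CPM in control and 29.0, 24.6 and 24.5 CPM in stimulated libraries, a log2 fold change of -1.40 (SE 0.10, adjusted p = 3.56e-06 by edgeR). Htra2, a mitochondrial protease, fell by 0.72 (SE 0.09, adjusted p = 0.000205 by edgeR). Of its exonic bases, however, 36.3% lie opposite Aup1 and 30.6% opposite Loxl3. Cycs, cytochrome c itself, fell by 0.41 (adjusted p = 0.0221 by edgeR), a call lost without control replicate 2 or 3 (edgeR adjusted p of 0.0765 and 0.0890). Without stimulated replicate 1, Casp6 was called higher (edgeR adjusted p = 0.0112) and Apaf1, the apoptosome scaffold, lower (edgeR adjusted p = 0.00840). With all libraries Apaf1 was at -0.24 (edgeR adjusted p = 0.0535), and it was called lower under 7 of 16 alternative settings. Under library size alone 6 genes of this list were called lower.

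In the death receptor list, 4 of 10 genes fell and none rose (median -0.25). Mlkl, the executioner of necroptosis, showed the largest change in any of the lists, from 9.84, 12.4 and 10.4 CPM in control to 1.66, 1.23 and 1.60 CPM in stimulated libraries, a log2 fold change of -2.86 (SE 0.18, adjusted p = 2.25e-06 by edgeR). Limma on log2(FPKM + 1) gave -1.69. Its activating kinase Ripk3 fell by 1.01 (SE 0.21, adjusted p = 0.00555 by edgeR), from 5.29 ± 0.469 to 2.63 ± 0.654 CPM (SD, n = 3). The receptors Fas and Tnfrsf1a fell by 0.60 and 0.39 (adjusted p of 0.0266 and 0.0223 by edgeR). Fas lost its call without control replicate 2 or 3 or stimulated replicate 2 (edgeR adjusted p of 0.0905, 0.113 and 0.0610) and Tnfrsf1a without control replicate 1 or 3 (edgeR adjusted p of 0.0504 and 0.0932), which left 2 genes lower without control replicate 3. Without stimulated replicate 1, Casp8 and Tradd were called higher (edgeR adjusted p of 0.0157 and 0.0215) and Ripk1 lower (edgeR adjusted p = 0.00956). With all libraries Ripk1 was at -0.25 (edgeR adjusted p = 0.0593), and it was called lower under 6 of 16 alternative settings.

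Of 16 genes in the list of p53 and its targets, 6 fell and 2 rose (median -0.17), beside the p53 targets Pmaip1 and Bbc3 described above. Plk2 fell by 1.92 (SE 0.10) and Sesn1 by 1.22 (SE 0.08), and Cdkn1a, the cell cycle inhibitor p21, went from 189 ± 6.51 to 88.0 ± 11.6 CPM (SD, n = 3), a log2 fold change of -1.10 (SE 0.11). Their edgeR adjusted p were 8.57e-07, 2.81e-06 and 3.45e-05. Tigar, a regulator of glycolysis, and Phlda3, a repressor of AKT, rose by 1.13 (SE 0.09) and 1.01 (SE 0.18), so the targets did not share 1 direction. Limma on log2(FPKM + 1) gave 0.73 for Tigar. Trp53, the gene of p53, fell by 0.34 (SE 0.09, adjusted p = 0.0164 by edgeR), a call lost without control replicate 3 (edgeR adjusted p = 0.0801), and 4 genes of the list were then lower.

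Among 9 tested regulators of BH3-only genes, 4 fell and 1 rose (median -0.39). The rise was that of Egr1, an immediate early factor, by 0.51 (SE 0.11, adjusted p = 0.00494 by edgeR). Ddit3, which encodes the stress factor CHOP, fell by 0.67 (SE 0.13), Myc by 0.60 (SE 0.10) and Jun by 0.39 (SE 0.09), with edgeR adjusted p of 0.00266, 0.00130 and 0.00858, and 64.1% of the exonic bases of Ddit3 lie opposite Mars1. The FOXO genes were not called, Foxo1 at 0.30 (95% interval 0.04 to 0.56, edgeR adjusted p = 0.0855) and Foxo3 at -0.12 (95% interval -0.36 to 0.12, edgeR adjusted p = 0.447).

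Of 9 genes for turnover of MCL1 and BIM protein, 1 fell, Marchf5, a mitochondrial ubiquitin ligase, by 0.47 (SE 0.09, adjusted p = 0.00329 by edgeR). The median of that list was -0.07, and library size alone gave 3 lower calls. Of 10 mitochondrial partners 1 rose, Bag1, a BCL2-binding co-chaperone, by 0.58 (SE 0.11, adjusted p = 0.00224 by edgeR). Of the exonic bases of Bag1, 16.1% lie opposite Chmp5. The 1 that fell was Vdac3, a channel of the outer membrane, by 0.36 (adjusted p = 0.0391 by edgeR). The Vdac3 call was lost without control replicate 1, 2 or 3 (edgeR adjusted p of 0.0509, 0.135 and 0.117), the list median was -0.03, and library size alone gave 3 lower calls.

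**Figure D5:**
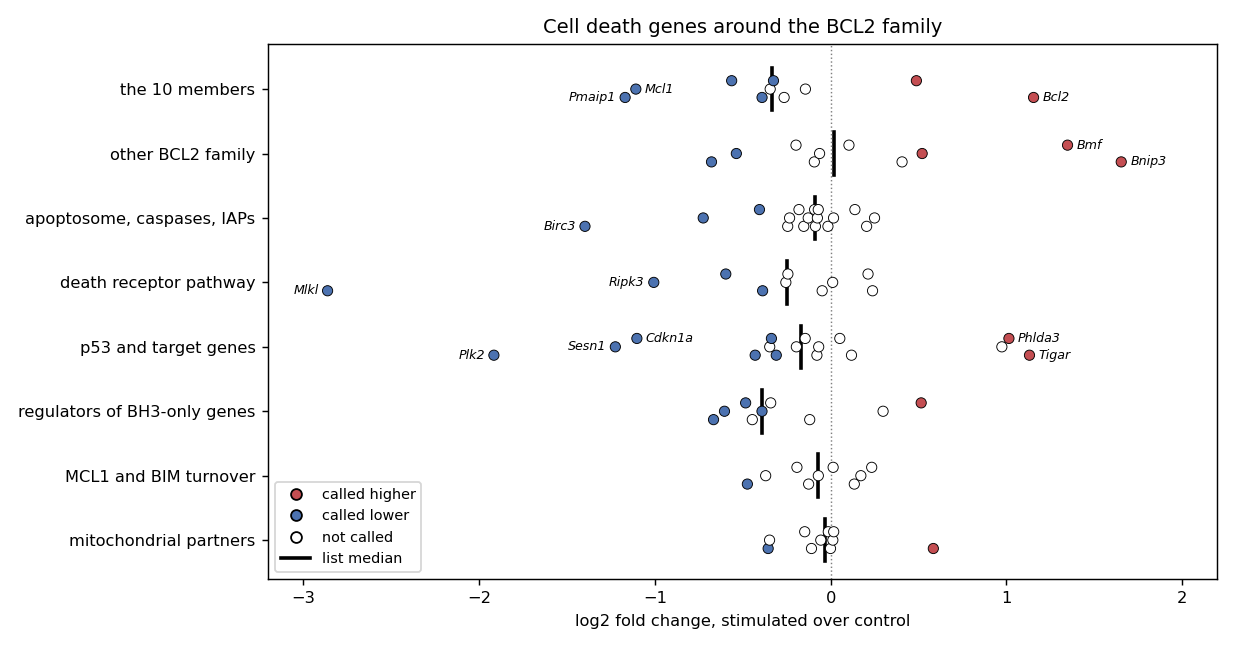
Log2 fold change (horizontal axis, stimulated over control) of each tested gene in the BCL2 family and the 7 surrounding lists, filled where called and open where not, with the list median as a black bar and genes beyond 1 in either direction named. Mlkl at -2.86 lay farthest left and Bnip3 at 1.65 farthest right.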

How the data were processed

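RNA-seq was done on 3 control and 3 stimulated cultures of primary mouse microglia. Per the study's methods, the authors aligned read pairs with HISAT2 (build mm39) and assigned them to genes with featureCounts on a Galaxy server; software versions, annotation, strand setting and the treatment of reads that match several genes are not given in the sources used here. The authors deposited unnormalized counts and, for the same 41079 genes, FPKM values. An FPKM value equalled its count scaled by 1 factor for the gene and 1 for the library. The gene factor of Mcl1 did not follow its annotated exonic length, as given above.

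Differential expression was tested on counts with edgeR 4.0.16 (R 4.3.3), using filterByExpr (14618 genes kept), TMM factors, glmQLFit and glmQLFTest with the group as the only term, and Benjamini-Hochberg adjusted p-values called under 0.05. The SE is the size of the log2 fold change over the square root of F. The common dispersion of 0.0164 gave a coefficient of variation between replicates of 0.128. Count totals of 20628148 to 27261839 leave larger errors for low genes such as Bik. No pair of libraries within a group agreed within sampling noise, by the mean chi-square per gene. Stimulated replicate 1 stood farthest from its group, at 78.3 against replicate 2 and 46.2 against replicate 3. The other pairs within groups were at 10.7 to 25.8. The fitting was tested on simulated data.

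As alternatives, factors were replaced by relative log expression or by library size alone, the test by DESeq2 1.42.0, and the filter by none or by at least 10 counts in every library. Further alternatives were a replicate block, each library left out, removal of a length trend (spline, 4 degrees of freedom), limma 3.58.1 on FPKM (log2 with a pseudocount of 1 or 0.1, or with 1 and a mean FPKM of at least 1), and the A1 copies summed.

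The members and the lists were chosen with earlier results of these data known. Named genes are the members, their relatives, and from each other list the 2 highest and 2 lowest log2 fold changes among called genes. Some, not all, of the genes sharing exons with these are named too. Cdkn1a, Trp53, Foxo1, Foxo3, Apaf1, Casp6, Casp8, Ripk1 and Tradd are named beyond that rule, after their values had been seen. Coordinates and sequences are those of GENCODE M39 on GRCm39.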

Additional observations from a re-analysis of the deposited data

How the results depend on the processing

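Of the 10 BCL2 family genes, 6 had the same call under all 16 alternatives. The number called higher was 2 throughout, and the number called lower ran from 3 to 7 when single libraries were left out; it was 3 without control replicate 1, 2 or 3, 4 without stimulated replicate 3 and 7 without stimulated replicate 2. Genes called over the whole table ran from 3249 to 5234 and pathway genes from 22 to 38. The Bcl2 to Mcl1 fold of 4.78 ran from 4.27 to 5.45 without single libraries, an alternative chosen after seeing the data. Some log2 fold changes near 0 turned sign, none of them called. Without single libraries Bcl2a1b ran from -0.28 (stimulated replicate 2) to 0.0062 (stimulated replicate 1), and Bcl2a1a from -0.24 to 0.035, positive without control replicate 3 or stimulated replicate 1. Bcl2l13 went to -0.028 under library size alone, and under limma to -0.029 with a pseudocount of 1, with or without the FPKM minimum, and to -0.034 with 0.1. The cause was not tested. Library size alone shifted the median of all genes by -0.13 and limma by -0.09 to -0.14. Calls higher went from 49.1% to 32.3% under library size alone and to 28.4% to 31.3% under limma. Under library size alone Bax went from -0.34 to -0.48 and Bak1 from -0.26 to -0.40, and both were then called lower. Both were also called lower with the length trend removed and without stimulated replicate 2, where the median shifted by -0.025 and -0.0094. Libraries of the same replicate number were not consistently the most alike. Their correlations were 0.27 (replicate 1, the highest of any pair across groups), -0.012 (replicate 2) and 0.18 (replicate 3). Control replicate 3 correlated at 0.19 with stimulated replicate 2. With the replicate block 4924 genes were called, against 4360 without it, and 6 BCL2 family genes were lower, Bax now among them. Depth limits genes of few counts, such as Bik and Ripk3.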
